A study of Mus musculus with 16 samples.

Results

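AKP and APT mouse tumour organoids, 3-dimensional epithelial cultures grown in drops of basement membrane extract, were compared in full growth medium. The comparison takes the 8 libraries of full medium at day 4 out of the 16 libraries of the series, 4 for each genotype. The AKP lines were MTO54 (passages 14 and 15) and MTO220 (passages 10 and 11), and the APT lines were MTO100 (passages 10 and 11) and MTO101 (passages 8 and 9). All 4 lines are labelled triple mutant. By the field's usual reading of the letters, which the labels do not spell out, all carry lesions in Apc and Trp53, and APT carries a lesion of Tgfbr2, the TGF-beta type II receptor. The labels state that Tgfbr2 is wild type in the AKP lines. Every line grew here with human EGF at 50 ng/ml and with noggin, which blocks BMP ligands, at 100 ng/ml. The TGF-beta receptor kinase ALK5 was blocked in both genotypes by galunisertib at 1 µM, and the culture supplement lacked retinoic acid. Each line gave 2 libraries from consecutive passages, 1 in sequencing pool 1 and 1 in pool 2, and 2 values per line are always given in that order below. The genotype belongs to the line, so a comparison of genotypes rests on 2 lines against 2, and the way the lines were made (promoters, clones, animals) is not given in the sources used here. Values are normalised reads, reads per gene divided by the authors' size factor for the library.

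Signals of the EGF receptor and its relatives reach the RAF, MEK and ERK kinases, and active ERK induces genes of its own feedback (dual-specificity phosphatases, Sprouty and SPRED proteins) as well as ETS and AP-1 transcription factors. TGF-beta receptors act through SMAD proteins and restrain growth of intestinal epithelium, and loss of the type II receptor makes cells blind to the ligand. ATF4 is a transcription factor translated when amino acids are short or the endoplasmic reticulum is stressed, and it induces amino acid transporters, the enzymes that make serine and asparagine, and stress genes such as Trib3 and Chac1. Interferon-stimulated genes encode antiviral proteins and are induced by a complex with STAT2 and IRF9 through the interferon-stimulated response element.

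Genes of the ATF4 response lay higher in AKP and interferon-stimulated genes lay higher in APT, and promoters of these lists are shown because the sequence elements that their known regulators bind can be read in them. Windows of 300 bases, from 250 before to 50 after the start of the gene, come from RefSeq (GRCm38.p6, the assembly of mm10) and are printed 5′ to 3′ on the gene's strand. Capitals mark the CEBP-ATF response element, searched as TGATGNAA on both strands, in Chac1 (chr2:119350992-119351291, plus strand), Trib3 (chr2:152344011-152344310, minus strand) and Asns (chr6:7693160-7693459, minus strand).
Chac1: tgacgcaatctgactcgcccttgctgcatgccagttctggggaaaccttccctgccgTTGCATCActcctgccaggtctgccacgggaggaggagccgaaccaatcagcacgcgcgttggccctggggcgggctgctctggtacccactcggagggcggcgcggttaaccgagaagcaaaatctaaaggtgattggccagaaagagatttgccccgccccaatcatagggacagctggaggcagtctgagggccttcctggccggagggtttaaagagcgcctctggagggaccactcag
Trib3: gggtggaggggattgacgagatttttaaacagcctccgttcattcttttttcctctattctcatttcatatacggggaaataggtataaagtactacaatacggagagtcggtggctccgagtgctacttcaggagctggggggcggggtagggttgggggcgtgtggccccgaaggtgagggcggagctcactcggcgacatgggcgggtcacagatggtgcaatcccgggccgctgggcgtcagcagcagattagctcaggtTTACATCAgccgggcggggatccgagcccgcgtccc
Asns: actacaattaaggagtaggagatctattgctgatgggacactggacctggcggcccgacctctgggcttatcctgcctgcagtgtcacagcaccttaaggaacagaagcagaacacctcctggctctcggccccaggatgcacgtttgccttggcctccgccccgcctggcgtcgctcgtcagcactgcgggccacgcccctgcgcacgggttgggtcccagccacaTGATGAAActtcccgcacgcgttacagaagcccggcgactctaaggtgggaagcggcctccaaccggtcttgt
The element was in the windows of 6 of the 18 ATF4-list genes with a window (33.3%: Asns, Chac1, Nupr1, Slc7a11, Trib3 and Vldlr), in 4.51% of 27025 RefSeq genes and in 2.89% of the 10476 tested genes with a window. Capitals in the next windows mark the interferon-stimulated response element, searched as GAAA, then NN, then GAAA on both strands, in Isg15 (chr4:156200769-156201068, minus strand), where 3 overlapping matches form 1 run, and in Ifit1 (chr19:34640639-34640938, plus strand).
Isg15: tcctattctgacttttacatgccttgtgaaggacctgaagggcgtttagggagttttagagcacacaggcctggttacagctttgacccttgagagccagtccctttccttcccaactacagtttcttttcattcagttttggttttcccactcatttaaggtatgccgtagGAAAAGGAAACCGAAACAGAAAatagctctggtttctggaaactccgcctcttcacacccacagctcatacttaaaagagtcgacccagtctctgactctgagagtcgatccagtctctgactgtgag
Ifit1: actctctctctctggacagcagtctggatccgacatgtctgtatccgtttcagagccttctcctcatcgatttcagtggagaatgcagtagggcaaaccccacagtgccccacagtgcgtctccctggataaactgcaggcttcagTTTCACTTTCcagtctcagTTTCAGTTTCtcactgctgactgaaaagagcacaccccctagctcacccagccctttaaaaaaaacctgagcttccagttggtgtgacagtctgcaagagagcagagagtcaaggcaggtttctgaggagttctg
That element was in 10 of 16 interferon-stimulated genes with a window (62.5%), in 3.99% of RefSeq genes and in 3.52% of tested genes. The AP-1 site TGANTCA was in 2 of 16 EGFR/ERK target genes (12.5%), Emp1 and Plaur, against 8.97% and 6.44%. A match of letters is a description of the window and not evidence of binding.

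Between 19384249 and 22251986 reads fell on genes in each library. Epcam, which marks epithelium, stood at 12805 to 14950.4 normalised reads in AKP and 9578 to 14364 in APT, and Vil1, the brush border protein villin, at 6867 to 8949 and 5221 to 12276. The intestinal transcription factor Cdx2 stood at 2926 to 4568 in AKP, 3419 to 4384 in MTO100 and 703 to 715 in MTO101. Of 9 fibroblast markers, 10 immune markers and 8 endothelial markers, 1, 2 and 1 were at 0 in all 8 libraries. Their summed levels were 423 to 712, 39.3 to 338 and 191 to 1753 normalised reads in AKP and 585 to 676, 36.1 to 219 and 414 to 865 in APT, so the ranges of the genotypes overlapped. The endothelial cadherin Cdh5 made up most of that sum in MTO54, at 607 to 1247, and did not exceed 4.60 in MTO220. Col1a1 did not exceed 6.88 and the leukocyte marker Ptprc did not exceed 10.4 in any library. Trp53 (Entrez gene 22059, chr11:69580348-69591873) stood at 122 and 97.3 in MTO54, 4207 and 3490.5 in MTO220, 91.2 and 109 in MTO100 and 149.8 and 120.4 in MTO101. It was high in MTO220 and low in the other 3 lines. Totals per gene show neither a deleted exon nor a point mutation. Apc stood at 1058 to 1667 normalised reads in AKP and 938 to 1892 in APT, and Tgfbr2 at 2349 to 3984 in AKP, 2668 to 3199 in MTO100 and 1236 to 1616 in MTO101. The Y-linked genes Ddx3y, Uty and Eif2s3y did not exceed 9.22 in MTO101 and stood at 130.0 to 845 in the other 3 lines, whereas the Y-linked Kdm5d stood at 193 and 158 in MTO54, 285 and 340.2 in MTO220, 319 and 315 in MTO100 and 157 and 218 in MTO101. RNA concentrations were 423 and 2344 ng/µl in MTO54, 969 and 2011 in MTO220, 168 and 1586 in MTO100 and 307 and 1065 in MTO101. They were higher in AKP than in APT within each pool, and their part in the results was not tested.

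In these lines, most genes of the ATF4 response, some EGFR/ERK targets and several secreted or surface proteins stood higher in AKP, and most interferon-stimulated genes and some WNT targets and enzymes of retinoid and drug metabolism stood higher in APT. Of 13898 genes tested, 2147 (15.4%) had all 4 AKP libraries on the same side of all 4 APT libraries, 1060 (7.63%) with AKP higher and 1087 (7.82%) with APT higher. When the smallest difference between an AKP line mean and an APT line mean, called the line gap here, also had to reach 2-fold, 725 genes (5.22%) were left, 259 (1.86%) higher in AKP and 466 (3.35%) higher in APT. Scaling the reads to library totals instead gave 749 genes higher in AKP and 1276 higher in APT without overlap and moved the median log2 difference of all genes from 0.00 to -0.07. Lines of a genotype differed by amounts near those between genotypes. The median absolute log2 difference was 0.35 between MTO54 and MTO220, 0.30 between MTO100 and MTO101, and 0.31 to 0.43 for the 4 pairs of an AKP and an APT line.

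With the line as the unit, 2 against 2, no gene passed limma's or edgeR's test, whereas DESeq2 called 749. Limma on line means called 0 of 13898 genes (0%) at an adjusted p under 0.05; the smallest adjusted p was 0.174, and 1480 genes (10.6%) had an unadjusted p under 0.05, 781 (5.62%) higher in AKP and 699 (5.03%) higher in APT. On reads summed per line, edgeR's quasi-likelihood test also called 0 genes, with 1409 at an unadjusted p under 0.05, and DESeq2 called 749 (5.39%), 392 higher in AKP and 357 higher in APT. Limma on the 8 libraries with the line as a random block called 594 genes (4.27%), 252 higher in AKP and 342 higher in APT. Adding the pool number as a replicate block to that fit left 372 calls, 157 higher in AKP and 215 higher in APT. On simulated data the fit of 8 libraries with the line as a block made more false calls than the fit of line means. There the 2 libraries of a line differed by counting noise alone, whereas the real ones also differed in passage and pool. The simulation therefore cannot say how many of the calls above are false. Because the genotype belongs to the line, the differences below are given as values per line, with limma's standard error. None of them is a call of the line-mean test.

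Among the 14 genes with the widest line gaps on the AKP side were a secreted protease inhibitor, surface proteins of the Ly6 family, a chloride channel and the stress genes Trib3 and Chac1. The log2 differences of these 14 genes ranged from 2.68 to 7.39 and their adjusted p from 0.174 to 0.369. Faim2 (Entrez gene 72393, chr15:99497005-99534880), an inhibitor of Fas-induced apoptosis, stood at 11131 and 18584 in MTO54, 1125 and 1182 in MTO220, 13.8 and 31.3 in MTO100 and 23.04 and 29.2 in MTO101, a log2 difference of 7.39 ± 1.26 (SE). Every AKP library exceeded every APT library, and MTO54 held more than MTO220. Olfm5 (Entrez gene 244180, chr7:104153013-104164816), an olfactomedin-domain gene, stood at 18514 and 25331 in MTO54, 851 and 1029 in MTO220, 47.7 and 61.7 in MTO100 and 23.04 and 27.5 in MTO101. Wfdc2 (Entrez gene 67701, chr2:164562715-164568510), a secreted whey acidic protein domain protein also known as HE4, stood at 7143 and 8244 in MTO54, 4776 and 2993 in MTO220, 249 and 293 in MTO100 and 50.7 and 41.3 in MTO101, a log2 difference of 5.58 ± 0.94. In each of these genes the APT libraries were low and the AKP line MTO54 was the highest.

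Gjb2 (Entrez gene 14619, chr14:57098602-57104702), the gap junction protein connexin 26, stood at 466 to 1049 normalised reads in AKP and 13.8 to 92.02 in APT. Dst (Entrez gene 13518, chr1:33907888-34308662), the cytoskeletal linker dystonin, stood at 353 and 643 in MTO54, 392 and 766 in MTO220, 68.9 and 90.1 in MTO100 and 31.1 and 77.4 in MTO101, a log2 difference of 3.02 ± 0.36, and Tc2n (Entrez gene 74413, chr12:101645446-101718919), a protein with tandem C2 domains, at 599.6 and 511 in MTO54, 613 and 600.4 in MTO220, 112 and 92.02 in MTO100 and 69.1 and 69.7 in MTO101, a difference of 2.77 ± 0.31. In Tc2n the AKP lines were nearly level. Ano1 (Entrez gene 101772, chr7:144588549-144752026), a calcium-activated chloride channel, stood at 707 to 1136 normalised reads in AKP and 76.04 to 183 in APT, a difference of 2.72 ± 0.27. Fam111a (Entrez gene 107373, chr19:12573510-12589769), a protease of DNA replication forks, stood at 1084 to 2121 normalised reads in AKP and 48.4 to 199.5 in APT. Ern2 (Entrez gene 26918, chr7:122169893-122186239), the IRE1-beta stress sensor of mucus-secreting epithelium, stood at 733 to 1020.5 in AKP, 102 to 198 in MTO100 and 8.06 to 18.1 in MTO101. Ly6c1 and Ly6c2, neighbouring genes on chromosome 15 whose near-identical sequences may share reads, stood at 16332 to 41183 and 6719.8 to 22861 in AKP and at 2845 to 5639.7 and 909 to 2231 in APT. Ly6a, the regenerative epithelium marker Sca-1, stood at 38718 and 45992 in MTO54, 28501 and 19747 in MTO220, 11703 and 10267 in MTO100 and 6619 and 3714 in MTO101, and its groups did not overlap either. Fetal-like and regenerative genes as a list were not on 1 side. Of 22 tested, 5 had no overlap with AKP higher (22.7%, against 7.63% of all genes) and 2 with APT higher (9.09%, near 7.82%). The median log2 difference of that list was -0.001.

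**Figure D1:**
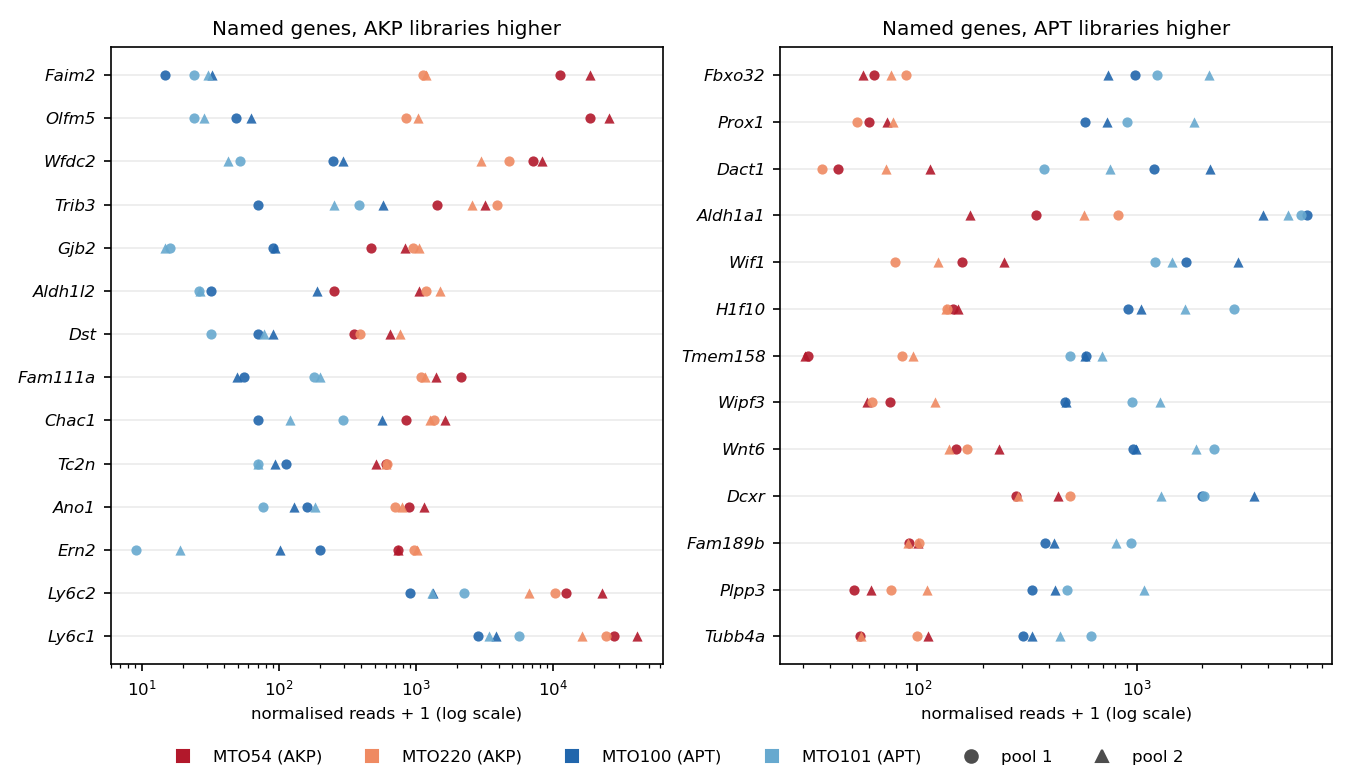
Normalised reads plus 1 (log axis) of genes with the widest line gaps on each side at a mean log2 CPM of at least 3, 14 for AKP and 13 for APT. Each point is 1 full-medium library, and colour gives the line and shape the pool. In every row the 4 AKP points (reds) and the 4 APT points (blues) are apart, and in Faim2 and Olfm5 the MTO54 points lie well to the right of the MTO220 points.

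On the APT side the widest gaps under the same limits belonged to an atrophy ligase, developmental transcription and WNT regulators, and a retinal dehydrogenase. The 14 log2 differences ranged from -4.08 to -2.30 and the adjusted p from 0.182 to 0.252. Fbxo32 (Entrez gene 67731, chr15:58175879-58214892), the ubiquitin ligase atrogin-1 and a target of FOXO factors, stood at 62.2 and 55.6 in MTO54, 87.4 and 74.6 in MTO220, 984 and 738 in MTO100 and 1236 and 2149 in MTO101, a log2 difference of -4.08 ± 0.41. The 4 AKP libraries lay within a narrow low range and MTO101 held the most. Prox1 (Entrez gene 19130, chr1:190118035-190170827), a homeobox factor that WNT signalling induces in intestinal tumours, stood at 58.97 and 71.5 in MTO54, 51.7 and 76.4 in MTO220, 583 and 731 in MTO100 and 908 and 1837 in MTO101, a difference of -3.82 ± 0.41. Dact1 (Entrez gene 59036, chr12:71309884-71320107), which binds Dishevelled and modulates WNT signalling, stood at 35.6 to 113 normalised reads in AKP and 376 to 2174 in APT. Wif1 (Entrez gene 24117, chr10:121034004-121100642), a secreted WNT inhibitor, stood at 158 and 246 in MTO54, 78.2 and 123 in MTO220, 1688 and 2892 in MTO100 and 1209 and 1452 in MTO101, a difference of -3.61 ± 0.46, and the ligand Wnt6 (Entrez gene 22420, chr1:74754342-74785322) at 138 to 234 normalised reads in AKP and 964 to 2250.1 in APT, a difference of -3.06 ± 0.42.

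Aldh1a1 (Entrez gene 11668, chr19:20492583-20643463), which oxidises retinal to retinoic acid, stood at 347 and 173 in MTO54, 821 and 575 in MTO220, 5992 and 3765 in MTO100 and 5656 and 4896 in MTO101, a log2 difference of -3.60 ± 0.53. H1f10 (Entrez gene 243529, chr6:87980421-87981482), a linker histone variant, stood at 144 and 153 in MTO54, 136 and 134 in MTO220, 912 and 1046 in MTO100 and 2771 and 1669 in MTO101, a difference of -3.35 ± 0.43, with the 4 AKP libraries close together. Tmem158 (Entrez gene 72309, chr9:123259057-123260789), a membrane protein first described as induced by RAS in senescent fibroblasts, stood at 29.8 to 94.1 normalised reads in AKP and 495 to 697 in APT, a difference of -3.47 ± 0.58. Dcxr, a carbonyl reductase of the xylulose pathway, stood at 282 to 495 normalised reads in AKP and 1298 to 3422 in APT, a difference of -2.50 ± 0.29, and Plpp3, a phosphatase of lysophosphatidic acid, at 50.2 to 110.1 normalised reads in AKP and 333 to 1083 in APT. Within this group, the actin regulator Wipf3 differed by -3.26, the neuronal beta-tubulin Tubb4a by -2.43 and Fam189b by -2.62. DESeq2 called all 14 genes on the AKP side and all 14 on the APT side, against 5.39% of all genes. The fit with the line as a block called 13 and 14 of them, against 4.27% of all genes. These genes were picked from the same 8 libraries for their wide gaps, so the calls are no independent support. Of 81 genes followed in this text, the fit with the line as a block called 60. With the pool added as a replicate block it called 48.

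The ATF4 response was the list with the most members on the AKP side. Of 22 genes of ATF4 and serine synthesis, 21 passed the filter on low values, 17 of these had no overlap with AKP higher (80.95%, against 7.63% of all genes) and none with APT higher (against 7.82%). The median log2 difference of the list was 1.74, against 0.00 over all genes. Atf4 itself (Entrez gene 11911, chr15:80255184-80257545) stood at 6165 and 7852 in MTO54, 7855 and 6909 in MTO220, 1738 and 3167 in MTO100 and 2292 and 1868 in MTO101, a difference of 1.70 ± 0.16 (limma, adjusted p = 0.182). The AKP lines were nearly level with each other and every AKP library was above every APT library. Trib3 (Entrez gene 228775, chr2:152337425-152344060), a pseudokinase that feeds back on ATF4 and AKT, stood at 1412 and 3192 in MTO54, 3900.3 and 2544 in MTO220, 69.97 and 571 in MTO100 and 381 and 253 in MTO101, a difference of 3.37 ± 0.33 (limma, adjusted p = 0.182). Chac1 (Entrez gene 69065, chr2:119351242-119354326), which degrades glutathione, stood at 846 and 1627 in MTO54, 1355 and 1267 in MTO220, 69.97 and 561 in MTO100 and 291 and 119 in MTO101, a difference of 2.68 ± 0.20 (limma, adjusted p = 0.174). In both genes the pool 1 library of MTO100 was the lowest of the 4 APT libraries.

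The enzymes that make serine and carry its carbon were on the same side. Phgdh, the first enzyme of serine synthesis, stood at 19278 and 24683 in MTO54, 26490.2 and 18339.6 in MTO220, 11727 and 12636 in MTO100 and 17813 and 11938 in MTO101, a log2 difference of 0.72 ± 0.15, and Psat1, the second, at 20505 and 21249 in MTO54, 22875 and 18970.2 in MTO220, 8861 and 9169.9 in MTO100 and 13884 and 10097 in MTO101, a difference of 1.01 ± 0.18. Psph, which takes the last step, stood at 2856 to 4724 normalised reads in AKP and 631 to 1679.8 in APT, a difference of 1.95 ± 0.27. The mitochondrial folate enzyme Mthfd2 stood at 3791 to 5875 normalised reads in AKP and 1319.9 to 2508 in APT, a difference of 1.44 ± 0.20, and Aldh1l2, which oxidises formyl-tetrahydrofolate there, at 253 and 1055 in MTO54, 1178 and 1492 in MTO220, 30.7 and 189 in MTO100 and 25.3 and 25.8 in MTO101, a difference of 4.19 ± 0.75. For Aldh1l2 the APT libraries ranged from 25.3 to 189 and the lowest AKP library stood at 253, so the groups were just apart. Asns, asparagine synthetase, overlapped: it stood at 4378 and 8693 in MTO54, 19840.4 and 16632 in MTO220, 3009 and 4650.4 in MTO100 and 4312 and 3102 in MTO101, and MTO220 alone was clearly high.

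Amino acid transporters differed in the same direction. Slc7a1, the cationic amino acid transporter, stood at 7059 and 9168 in MTO54, 6492 and 7584 in MTO220, 1756 and 2301 in MTO100 and 1418 and 2298 in MTO101, a log2 difference of 1.98 ± 0.17. Slc7a5 and Slc3a2, the light and heavy chains of the large neutral amino acid transporter, stood at 11711 to 16698 and 9335 to 15716 in AKP and 3089 to 5547 and 3179 to 5568 in APT, differences of 1.86 ± 0.23 and 1.60 ± 0.23. The cystine transporter Slc7a11 stood at 6339 to 8209 normalised reads in AKP and 4146 to 5468 in APT. Slc7a3, which did not pass the filter, stood at 4.37 and 3.97 in MTO54, 244 and 140.3 in MTO220, 5.30 and 11.4 in MTO100 and 6.91 and 7.74 in MTO101 and was high in MTO220 only. The 4 list members that overlapped were Asns, Ddit3, Sesn2 and Stc2; Ddit3, the stress factor CHOP, stood at 91.7 to 344 normalised reads in AKP and 69.97 to 205 in APT.

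The list also differed between the pools of a line. All 21 members were higher in pool 2 than in pool 1 in MTO54 and in MTO100, with median log2 differences of 0.84 and 0.76, whereas 4 members were higher in pool 2 in MTO220 and 6 in MTO101, with medians of -0.19 and -0.46. The AKP minus APT median was 1.67 in pool 1 and 1.77 in pool 2. The fit with the line as a block called 10 of the 21 members, all higher in AKP, against 4.27% of all genes. Whether the RNA concentration, which was higher in AKP in each pool, has a part in this was not tested.

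Genes of the unfolded protein response, the branch that expands folding capacity of the endoplasmic reticulum, lay on the AKP side by smaller amounts. Of 18 members, all tested, 9 had no overlap with AKP higher (against 7.63% of all genes) and none with APT higher, and the median log2 difference was 0.48. None of the 9 reached a 2-fold line gap. Pdia6, a disulfide isomerase, stood at 7214 and 9030.4 in MTO54, 8568 and 7993 in MTO220, 4358 and 5046 in MTO100 and 3234 and 4096 in MTO101, a difference of 0.98 ± 0.18. Herpud1, which serves degradation of misfolded proteins, stood at 1986 to 4089.9 normalised reads in AKP and 858 to 1624 in APT, a difference of 1.13 ± 0.25, and Manf, a secreted stress protein, at 4181 to 4612 normalised reads in AKP and 2694 to 3235 in APT, a difference of 0.64 ± 0.15. The chaperone Hspa5 (BiP) stood at 12668 and 11288 in MTO54, 18115 and 15026 in MTO220, 10168 and 10699 in MTO100 and 9131 and 11179 in MTO101, with the groups just apart.

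**Figure D2:**
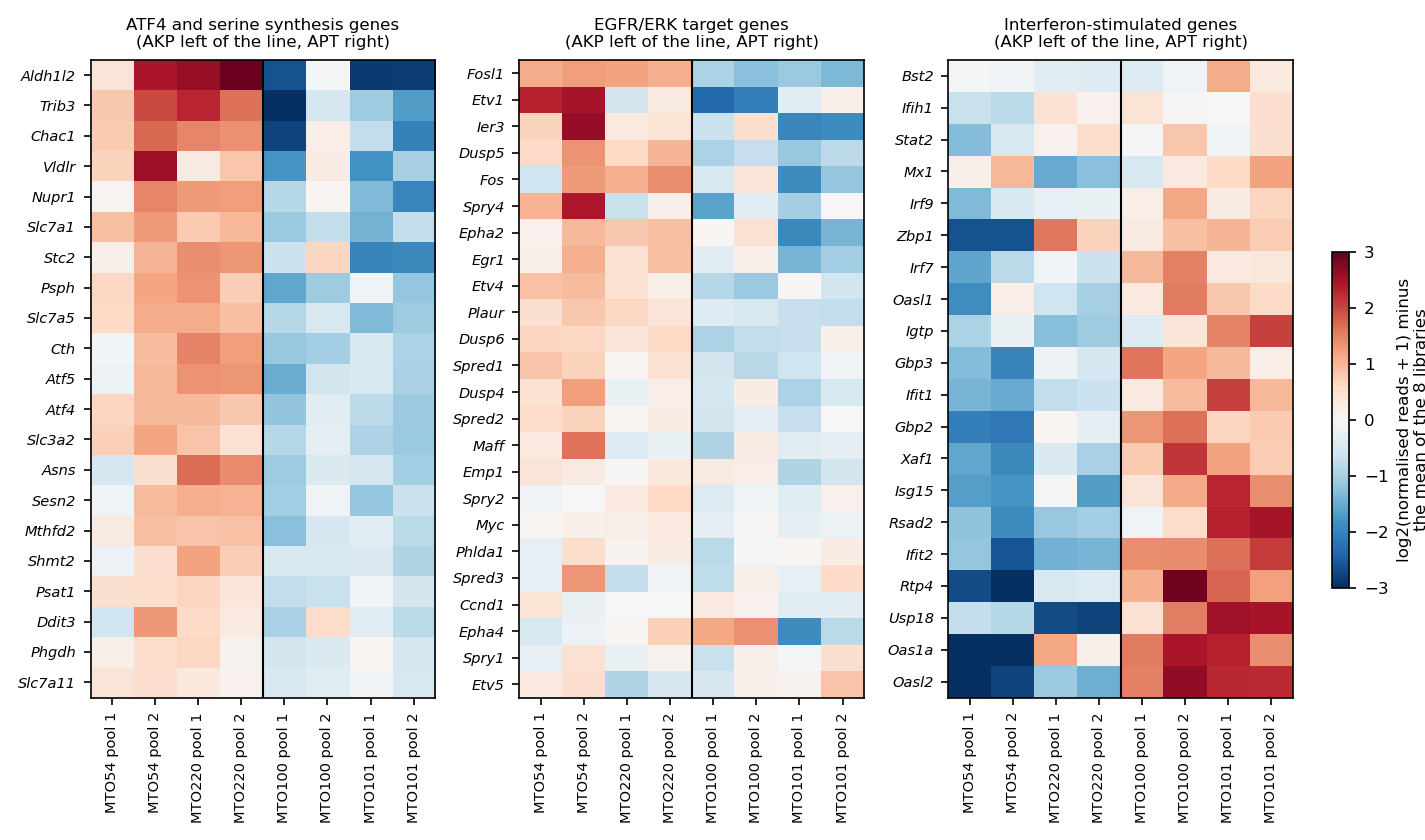
Log2(normalised reads + 1) of tested members of 3 lists in the 8 full-medium libraries, minus the gene's mean over those libraries (red above, blue below, colours limited at 3), with AKP libraries left of the black line. Nearly all ATF4-list rows are red on the left, EGFR/ERK target rows are mixed with Fosl1 and Dusp5 red in all 4 AKP libraries, and interferon-stimulated rows are blue on the left apart from genes such as Mx1 and Zbp1.

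Target genes of EGFR and ERK lay partly on the AKP side. All 24 members were tested, 9 had no overlap with AKP higher (37.5%, against 7.63%), none had APT higher (against 7.82%), and 15 overlapped. The median log2 difference was 0.94, and it was 0.58 without line MTO54 and 1.21 without line MTO220. Fosl1 (Entrez gene 14283, chr19:5447698-5455938), the AP-1 subunit FRA1, stood at 127 and 139 in MTO54, 136 and 124 in MTO220, 29.7 and 23.7 in MTO100 and 26.5 and 22.4 in MTO101, a difference of 2.32 ± 0.42, with all AKP libraries near each other and all APT libraries near each other. Dusp5, a nuclear ERK phosphatase, stood at 199.9 and 346 in MTO54, 205 and 274 in MTO220, 68.9 and 83.5 in MTO100 and 61.1 and 78.3 in MTO101, a difference of 1.77 ± 0.31, and Dusp6, its cytoplasmic relative, at 2647 and 2600.2 in MTO54, 2168 and 2552 in MTO220, 871 and 1012 in MTO100 and 1049.6 and 1889 in MTO101, a difference of 1.11 ± 0.25. Plaur, the urokinase receptor, stood at 706 to 939.9 normalised reads in AKP and 323 to 408 in APT, a difference of 1.16 ± 0.21, and the ETS factor Etv4 at 2289.7 to 3855 normalised reads in AKP and 923 to 2051 in APT, a difference of 1.25 ± 0.35.

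Other members of the list overlapped between the genotypes. Etv5 stood at 4469 and 5139 in MTO54, 1959 and 2576 in MTO220, 2581 and 4042 in MTO100 and 3944 and 6624 in MTO101, the feedback inhibitor Spry1 at 348 to 563 normalised reads in AKP and 259.7 to 579.6 in APT and cyclin Ccnd1 at 7231 to 11199 normalised reads in AKP and 6766 to 10345 in APT. Spry4 was high in MTO54 alone, at 1246 and 3234 in MTO54, 383 and 671 in MTO220, 197 and 486 in MTO100 and 296 and 611 in MTO101. The remaining members without overlap were Spred1, Spred2, Egr1 and Myc, all with AKP higher; Myc stood at 4667 to 5389 normalised reads in AKP and 3576 to 4464 in APT. The fit with the line as a block called 4 of the 24 members, all higher in AKP, against 4.27% of all genes.

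Of the EGF receptor ligands that the cells make themselves, Ereg, Areg and Btc, neighbours on chromosome 5, stood higher in AKP. EGF was in the medium of both genotypes. Of 12 tested members of the EGF family list, 3 had no overlap with AKP higher (against 7.63% of all genes) and 1 with APT higher (8.33%, near the 7.82% of all genes). Ereg (Entrez gene 13874, chr5:91074617-91093649), epiregulin, stood at 53.5 and 57.6 in MTO54, 94.3 and 129 in MTO220, 0 and 0 in MTO100 and 1.15 and 0 in MTO101. In the APT libraries that is 1 read in all, so Ereg passed the filter only through AKP. Areg (Entrez gene 11839, chr5:91139599-91148432), amphiregulin, stood at 158 and 719 in MTO54, 355 and 375 in MTO220, 58.3 and 93.9 in MTO100 and 28.8 and 21.5 in MTO101, a log2 difference of 3.00 ± 0.60. Btc, betacellulin, which lies beside them on chromosome 5, stood at 554 and 845 in MTO54, 205 and 254 in MTO220, 159 and 175 in MTO100 and 78.3 and 106 in MTO101, with MTO54 the highest. The ERBB4 ligand Nrg4 was higher in APT, at 1.15 to 6.55 normalised reads in AKP and 7.74 to 31.8 in APT, and the receptors Egfr, Erbb2 and Erbb3 and the ligand Tgfa overlapped. The ligands Egf and Epgn did not pass the filter and overlapped too, Egf at 1.09 to 10.3 in AKP and 3.46 to 9.49 in APT. Within the RAS and MAP kinase cascade 4 of 19 tested members had no overlap, all with AKP higher (21.1%, against 7.63% of all genes). Among these were the adaptor Shc1, the phosphatase Ptpn11 and Rasal1, a RAS GTPase-activating protein, which stood at 60.4 to 123 normalised reads in AKP and 6.36 to 22.4 in APT.

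Interferon-stimulated genes lay on the APT side, at low levels. Of 24 genes, 21 passed the filter, 14 of these had no overlap with APT higher (66.7%, against 7.82%), none had AKP higher (against 7.63%), and all 21 differences were below 0. Members such as Ifit1 and Ifit2 were below 10 normalised reads in every AKP library and passed the filter only through APT. For such genes the filter fixed the direction, so these counts are partly set by it and are a description. The median log2 difference was -1.98, and it was -2.53 without line MTO220. The median level of the 21 genes was 11.5 normalised reads in MTO54, 21.4 in MTO220, 95.6 in MTO100 and 101 in MTO101. Oasl2 (Entrez gene 23962, chr5:114896926-114912245), of the oligoadenylate synthetase family, stood at 4.37 and 6.95 in MTO54, 24.1 and 18.7 in MTO220, 155 and 341 in MTO100 and 260.4 and 253 in MTO101, a difference of -4.34 ± 0.73 (limma, adjusted p = 0.249). Ifit2, which blocks translation of viral RNA, stood at 4.37 and 0.992 in MTO54, 3.45 and 3.55 in MTO220, 30.7 and 31.3 in MTO100 and 36.9 and 50.7 in MTO101, a difference of -3.29 ± 0.69. Usp18, which removes ISG15 and dampens the interferon receptor, stood at 25.1 and 22.8 in MTO54, 5.75 and 5.33 in MTO220, 58.3 and 124 in MTO100 and 251 and 237 in MTO101, a difference of -3.51 ± 0.94. In each of these genes the AKP libraries lay below 30 normalised reads and the APT libraries above.

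Isg15 (Entrez gene 100038882, chr4:156199424-156200818), the ubiquitin-like protein, stood at 5.46 and 4.96 in MTO54, 18.4 and 5.33 in MTO220, 25.4 and 43.6 in MTO100 and 97.9 and 52.5 in MTO101, and Ifit1 (Entrez gene 15957, chr19:34640889-34650009) at 3.28 and 2.98 in MTO54, 5.75 and 6.22 in MTO220, 12.7 and 20.9 in MTO100 and 46.1 and 21.5 in MTO101, so the groups were apart but close in some libraries. Oas1a was at 1.09 and 2.98 in MTO54 but at 147 and 71.9 in MTO220, below the 171 to 359 of APT. The transcription factors of the pathway were less uniform. Irf7 and Irf9 had no overlap, at 26.2 to 75.9 and 93.9 to 209 in AKP and 99.1 to 234 and 274 to 538 in APT, whereas Stat2 overlapped, at 89.6 to 319.7 normalised reads in AKP and 203 to 391 in APT. Mx1 was lowest in MTO220 and overlapped, at 45.9 and 84.4 in MTO54, 13.8 and 16.9 in MTO220, 29.7 and 51.2 in MTO100 and 63.4 and 96.3 in MTO101. Of 17 tested genes of antigen presentation, 3 had no overlap with APT higher (17.6%, against 7.82% of all genes), the transporters Tap1 and Tap2 and the proteasome subunit Psmb9. Tap1 stood at 24.03 to 79.3 normalised reads in AKP and 118 to 163 in APT. Summed levels of the 10 immune markers were 39.3 to 338 normalised reads in AKP and 36.1 to 219 in APT, with Cd3g and Tyrobp at 0 in all 8 libraries. The leukocyte marker Ptprc stood at 7.64 and 4.96 in MTO54, 0 and 1.78 in MTO220, 2.12 and 1.90 in MTO100 and 10.4 and 3.44 in MTO101, and the part of such cells in the result was not tested. The fit with the line as a block called 4 of the 21 interferon-stimulated genes, against 4.27% of all genes.

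Some genes were near 0 in both lines of a genotype and present in both lines of the other, with line means up to 3 and from 30 normalised reads. Of 13898 genes tested, 19 were near 0 in AKP and 9 near 0 in APT in this way. Each passed the filter on low values only through the genotype where it was high. These counts are a description and not a result about the genotypes. Hoxb13 (Entrez gene 15408, chr11:96194316-96196610), the most posterior gene of its HOX cluster and a marker of distal colon and rectum, stood at 0 and 0 in MTO54, 1.15 and 0.888 in MTO220, 222 and 378 in MTO100 and 465 and 316 in MTO101. Of 9 tested colon identity genes, only Hoxb13 had no overlap with APT higher (11.1%, against 7.82% of all genes). In that list 2 had AKP higher (22.2%, against 7.63%), and the median log2 difference was 0.45. Gas1 (Entrez gene 14451, chr13:60174405-60177535), a growth-arrest membrane protein and Hedgehog co-receptor, stood at 1.09 and 0 in MTO54, 1.15 and 0 in MTO220, 307 and 306 in MTO100 and 1049.6 and 2694 in MTO101. Both were read in APT only, apart from single reads. Tlx2, a homeobox factor of enteric neurons, stood at 0 to 1.78 in AKP and 166 to 530.0 in APT. Glp1r, the receptor of glucagon-like peptide 1, and Sox18, a factor of vessel development, were at 0 in all 4 AKP libraries. Against a floor of 3 reads per library they were at least 51.7-fold and 15.7-fold higher in APT, where they stood at 44.6 to 352 and 34.4 to 80.6.

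Other genes of that group in APT were the sialyltransferase St8sia2, the Eph receptor Epha3, the carboxylesterase Ces1d, the phosphate carrier Slc34a2, the calcium-binding protein S100g, the matrix protein Podn, Slc6a17, Mab21l3, Fam43b, Capn11, Cib3, the predicted gene Gm11538 and Sox2ot. Sox2ot overlaps Sox2, and the reads carry no strand. Sox2ot stood at 0 and 0 in MTO54 and 1.15 and 0 in MTO220. Sox2 was read in those libraries, so its reads were not counted for Sox2ot there. Sox2 is a factor of gastric and neural progenitors. It stood at 84.1 and 28.8 in MTO54, 147 and 268 in MTO220, 534 and 595 in MTO100 and 3380.3 and 4243 in MTO101.

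Genes near 0 in APT included a developmental factor as well. Gli3 (Entrez gene 14634, chr13:15463723-15730026), a transcription factor of Hedgehog signalling, stood at 89.6 and 83.4 in MTO54, 19.5 and 40.9 in MTO220, 1.06 and 0 in MTO100 and 0 and 1.72 in MTO101. Impact, whose protein inhibits the activation of GCN2, a kinase upstream of ATF4, stood at 28.4 and 36.7 in MTO54, 293 and 312 in MTO220, 1.06 and 0 in MTO100 and 0 and 0 in MTO101, with MTO220 far above MTO54. Xlr3a and Xlr3b, near-identical copies on chromosome X that may share reads, stood at 422 to 583 and 301 to 767 in AKP and did not exceed 3.46 in APT. Foxl2os, Ereg, Lman1l and a gene without a name in the RefSeq table were near 0 in APT too. Foxl2os is the opposite-strand partner of Foxl2, and without strand their reads cannot be told apart. Foxl2, a forkhead factor known for its role in the ovary, stood at 941 and 1040.1 in MTO54, 415 and 485 in MTO220, 1.06 and 0.949 in MTO100 and 4.61 and 2.58 in MTO101, just outside the limit in MTO101.

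WNT target genes lay more often on the APT side. Of 20 genes, 19 were tested, 6 had no overlap with APT higher (31.6%, against 7.82%) and 1 with AKP higher (5.26%, against 7.63%). The median log2 difference was -0.60; it was -0.16 without line MTO220 and -0.81 without line MTO54. The 6 genes were Prox1 and Wif1, described above, with Notum, Apcdd1, Sp5 and Sox4. Notum, a secreted enzyme that inactivates WNT ligands, stood at 2207 and 2643 in MTO54, 429 and 676 in MTO220, 2964 and 6207 in MTO100 and 3370.0 and 4973 in MTO101, with MTO220 the lowest. Sp5, a direct target of beta-catenin, stood at 553 and 776 in MTO54, 1049 and 1083 in MTO220, 1251 and 1455 in MTO100 and 5034 and 4483 in MTO101, with MTO101 the highest. Sox4 stood at 1468 to 2254 normalised reads in AKP and 2684 to 4809 in APT, a difference of -0.93 ± 0.23. Axin2, the standard feedback target, overlapped at 4503 and 6238 in MTO54, 3470.3 and 4596 in MTO220, 6314 and 10388 in MTO100 and 4838 and 7531 in MTO101, and Lgr5, the stem cell receptor of R-spondin, at 143 and 299.7 in MTO54, 1002 and 1399 in MTO220, 274 and 384 in MTO100 and 137 and 396 in MTO101. The member with AKP higher was Sox9, at 2955 to 4635 normalised reads in AKP and 1864 to 2888 in APT, a difference of 0.51 ± 0.18.

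TGF-beta ligands split between the genotypes while galunisertib inhibited the receptor kinase in all libraries. Tgfb1 (Entrez gene 21803, chr7:25687002-25705077) stood at 1639 and 2649 in MTO54, 1113 and 1000.1 in MTO220, 259.7 and 511 in MTO100 and 475 and 439 in MTO101, a log2 difference of 1.86 ± 0.39. Tgfb2 (Entrez gene 21808, chr1:186622787-186709697) stood the other way, at 107 and 78.4 in MTO54, 22.99 and 35.5 in MTO220, 317 and 429.7 in MTO100 and 696 and 1373 in MTO101, a difference of -3.52 ± 0.78. Ltbp1, which stores latent TGF-beta in the matrix, was higher in APT too, at 4.96 to 30.2 normalised reads in AKP and 57.2 to 284 in APT, a difference of -3.28 ± 0.83. The other 13 of 16 tested members, with the receptors and SMADs among them, overlapped. Of 17 tested TGF-beta/SMAD target genes, 2 had no overlap, Ccn2 and Cdkn2b, with AKP higher (11.8%, near the 7.63% of all genes). Bmp7, a BMP ligand, stood at 126 to 249.6 normalised reads in AKP and 576 to 744 in APT, a difference of -1.85 ± 0.34.

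Enzymes of aldehyde, retinoid and drug metabolism lay on the APT side in 6 of 17 tested members (35.3%, against 7.82%) and on the AKP side in 1 (5.88%, against 7.63%). The median log2 difference was -1.22, and it was -0.06 without line MTO100. Aldh1a7, a close paralog of Aldh1a1 beside it on chromosome 19, stood at 57.6 to 194 normalised reads in AKP and 343 to 1152 in APT, a difference of -2.52 ± 0.63, and Rdh10, which makes retinal from retinol, at 1017 to 2169 normalised reads in AKP and 2703 to 3987 in APT. The sulfotransferase Sult1a1 stood at 17.5 and 7.94 in MTO54, 6.90 and 2.66 in MTO220, 136 and 183 in MTO100 and 113 and 86.00 in MTO101, a difference of -3.92 ± 0.68. The drug efflux pump Abcb1a was the member with AKP higher, at 3746 and 6129 in MTO54, 1917 and 2222 in MTO220, 1089 and 692 in MTO100 and 184 and 293 in MTO101. Aldh3a1, from the NRF2 list, was higher in APT as well, at 41.7 to 429 normalised reads in AKP and 561 to 2437 in APT.

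**Figure D3:**
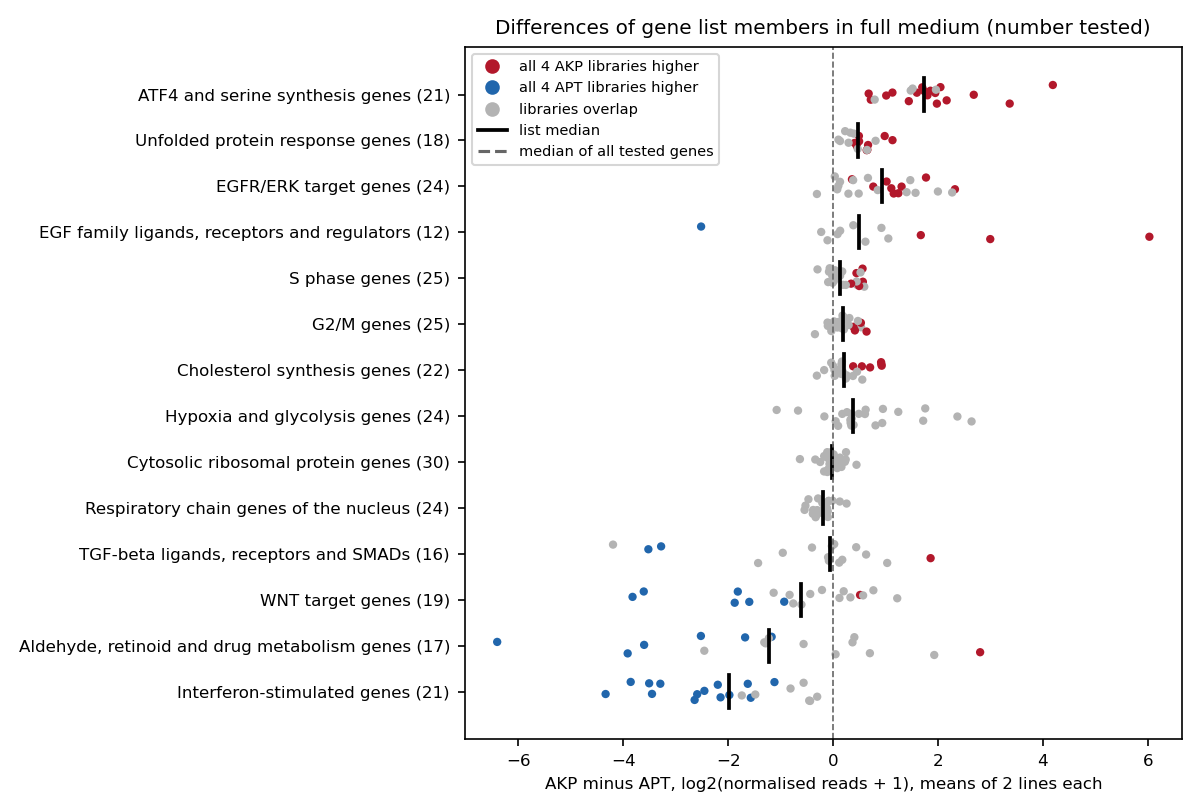
AKP minus APT difference of log2(normalised reads + 1), from means of 2 lines each, for every tested member of 14 lists; red and blue points are genes whose 4 AKP and 4 APT libraries do not overlap, black bars are list medians and the dashed line is the median of all tested genes. The ATF4 list has its median at 1.74 and the interferon-stimulated list at -1.98, while ribosomal protein genes sit around the dashed line.

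Several epithelial lineage genes differed widely between lines of a genotype. Of 13 tested goblet cell genes, 3 had no overlap with AKP higher (23.1%, against 7.63% of all genes), Agr2, Ern2 and Kcnma1. Agr2, a disulfide isomerase needed for mucins, stood at 1159.8 and 1513 in MTO54, 8425 and 7536 in MTO220, 823 and 379 in MTO100 and 91.02 and 39.6 in MTO101, and the mucin Muc2 at 3.28 and 7.94 in MTO54, 1248 and 3268 in MTO220, 5.30 and 18.97 in MTO100 and 3.46 and 9.46 in MTO101, so that MTO220 alone expressed Muc2 at a high level. The summed goblet cell genes were 28029 to 31126 in MTO220, 3896 to 4807 in MTO54, 6759 to 7410.4 in MTO100 and 1836 to 2103 in MTO101. Of 7 tested enteroendocrine genes, none had no overlap with AKP higher (against 7.63%) and 1, Nts, with APT higher (14.3%, against 7.82%), and the median log2 difference was -0.93. The summed 20 enteroendocrine genes went the other way, at 1158 to 2197 in AKP and 327 to 514 in APT, without overlap. MTO54 had the highest sums, 2070 and 2197, although its tested members lay lowest, with a median log2 deviation of -3.25 from the mean of the lines. The sum thus follows its most abundant members and not the list as a whole. Summed stem cell genes were 43797 to 60478 in AKP and 28201 to 41991 in APT, without overlap. In bulk RNA, fewer cells of a type and less RNA per cell cannot be told apart. Of 7 tested tuft cell genes, 3 had no overlap with APT higher (42.9%, against 7.82% of all genes), Gfi1b, Ptgs1 and Plcg2, while the summed tuft cell genes overlapped, at 829 to 3868 in AKP and 2800.5 to 3682 in APT. The tuft cell factor Gfi1b stood at 1.78 to 4.37 normalised reads in AKP and 24.4 to 72.6 in APT. Among 18 tested stem cell genes 4 had no overlap with AKP higher (22.2%, against 7.63%), Bmi1, Prom1, Slc12a2 and Gkn3. Gastric-type genes split: of 9 tested, 3 had no overlap with AKP higher (33.3%, against 7.63%) and 2 with APT higher (22.2%, against 7.82%). Sox2, given above, was higher in APT. The gastric-type membrane protein Vsig1 stood at 108 and 105 in MTO54, 335 and 298 in MTO220, 9.54 and 6.64 in MTO100 and 1.15 and 1.72 in MTO101, a log2 difference of 5.31 ± 0.96, and the water channel Aqp5 at 5290.1 and 5805 in MTO54, 940.3 and 929.9 in MTO220, 452 and 469 in MTO100 and 114 and 49.9 in MTO101. Vsig1 passed the filter only through AKP.

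Among structural and cell cycle genes, single members stood out from lists that mostly overlapped. Krt20, the keratin of differentiated intestinal epithelium, stood at 22.9 and 35.7 in MTO54, 45.98 and 42.6 in MTO220, 430.4 and 296 in MTO100 and 464 and 406 in MTO101, a log2 difference of -3.43 ± 0.39, and Vim, the mesenchymal intermediate filament vimentin, at 963 and 2008 in MTO54, 902 and 1093 in MTO220, 4531 and 7460.4 in MTO100 and 4432 and 3327 in MTO101, a difference of -2.01 ± 0.30. Both were higher in APT. Ccnd2, cyclin D2, stood at 4882 and 3572 in MTO54, 6722 and 6104 in MTO220, 1614 and 1286 in MTO100 and 889 and 903 in MTO101, a difference of 2.19 ± 0.34, and the CDK inhibitor Cdkn1c, an imprinted gene, at 441 and 541 in MTO54, 458 and 448 in MTO220, 1086 and 1174 in MTO100 and 2311 and 2337 in MTO101, a difference of -1.78 ± 0.39. The Notch ligand Jag1 stood at 543 to 848 normalised reads in AKP and 214 to 418 in APT, a difference of 1.21 ± 0.20. Perp, listed as a p53 target and a desmosome protein, stood at 2169 to 2720.4 normalised reads in AKP and 759 to 1088 in APT, a difference of 1.44 ± 0.18; of 20 tested p53 targets, 3 had no overlap with AKP higher (against 7.63% of all genes) and 2 with APT higher (against 7.82%).

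In 3 lists no member was without overlap, against 15.4% of all genes. All 30 cytosolic ribosomal protein genes, all 24 nuclear respiratory chain genes and all 24 hypoxia and glycolysis genes overlapped, with medians of -0.03, -0.20 and 0.37. Overlap does not mean that a list had no shift. The log2 difference was above 0 in 14 of the 30, 2 of the 24 and 21 of the 24 genes. Of 25 S phase genes 5 and of 25 G2/M genes 4 had no overlap with AKP higher (against 7.63% of all genes), with medians of 0.13 and 0.19. Of 22 cholesterol synthesis genes 6 (27.3%, against 7.63%) had no overlap with AKP higher, among them the transcription factor of the pathway Srebf2 at 9212 to 13342 normalised reads in AKP and 4771 to 9059.8 in APT, with a list median of 0.22, which was 0.053 without line MTO101 and 0.47 without line MTO100.

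Whole chromosomes differed between lines, among the autosomes most of all in MTO54. Against the mean of the other 3 lines, the median log2 difference of MTO54 was 0.45 on chromosome 5 (893 genes), 0.41 on chromosome 15 (546 genes), 0.28 on chromosome 19 (464 genes) and -0.29 on chromosome 4 (878 genes). In the other lines the medians of the autosomes lay between -0.20 and 0.16. Genes of a chromosome are not replicates, and no test was made. The AKP minus APT median was 0.25 on chromosome 5, 0.17 on chromosome 15 and 0.24 on chromosome 19, and without line MTO54 it was 0.07, -0.03 and 0.14. On chromosome 19, 17.9% of genes had no overlap with AKP higher, and on chromosome 5, 16.01%, against 7.63% of all genes. Ereg, Areg, Btc, Slc7a1 and Psph lie on chromosome 5, Faim2, Atf4, Ly6a and Ly6c1 on chromosome 15, and Fosl1, Dusp5, Psat1 and Slc3a2 on chromosome 19. Their differences are wider than these medians, and the part that the chromosomes have in them was not tested.

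**Figure D4:**
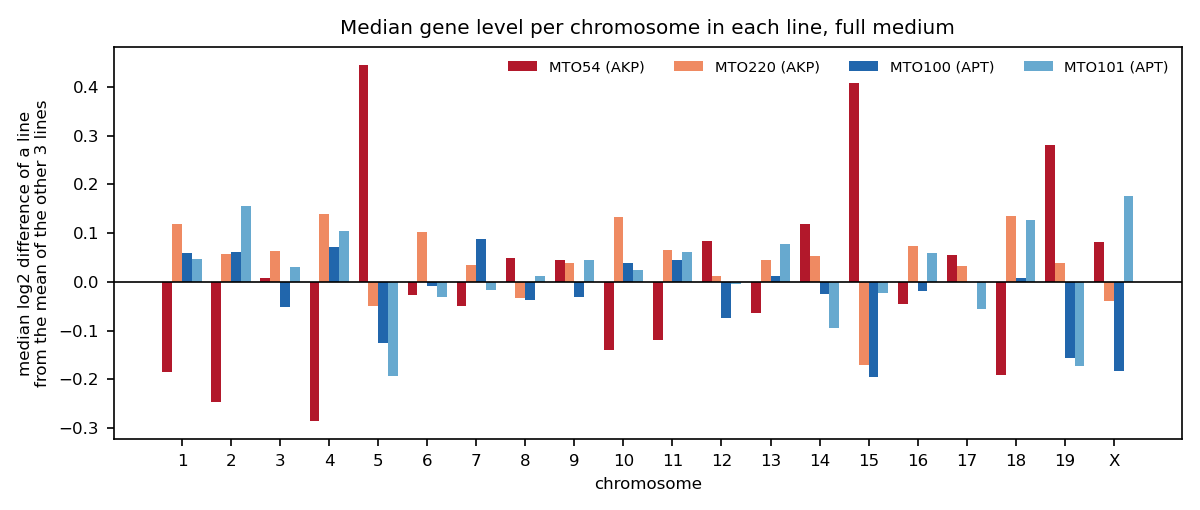
Median log2 difference of each line from the mean of the other 3 lines over the tested genes of each autosome and of chromosome X, full medium, with 1 bar per line. MTO54 (dark red) reaches 0.45 on chromosome 5 and 0.41 on chromosome 15 and lies at -0.29 on chromosome 4.

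The remaining 8 libraries come from the same lines at day 7, AKP with TGF-beta and without galunisertib, APT without EGF, so medium, day and genotype differ together and values are only set side by side. There, 5248 genes (37.8%) had no overlap, 2600 (18.7%) with AKP higher and 2648 (19.1%) with APT higher. Of the 1060 genes on the AKP side in full medium, 556 (52.5%) were on that side again and 35 on the other. Of the 1087 on the APT side, 623 (57.3%) were on that side again and 34 on the other. From the changed media these are 21.4% of the 2600 and 23.5% of the 2648 genes. Of the 14 genes named on each side, 10 and 11 kept their side without overlap, and the other 4 and 3 overlapped.

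The lists behaved differently from each other in the changed media. The all-gene shares there, 18.7% with AKP higher and 19.1% with APT higher, are well above those of full medium. The ATF4 list had 8 of 21 members with AKP higher and 1 with APT higher, and its median difference was 0.38. Chac1 stood at 47.7 to 152 in AKP and 68.9 to 92.96 in APT, Trib3 at 197 to 366 in AKP and 41.5 to 70.9 in APT and Atf4 at 2585 to 3374 in AKP and 1878 to 2591 in APT. The EGFR/ERK targets had 19 of 24 members with AKP higher and a median of 2.22, in a comparison where only AKP had EGF in the medium; Fosl1 stood at 94.1 to 139.8 in AKP and 3.69 to 13.2 in APT and Etv4 at 1993 to 3712 in AKP and 54.4 to 130.3 in APT. The interferon-stimulated genes had 15 of 21 with APT higher and a median of -2.06. Oasl2 stood at 4.55 to 18.3 in AKP and 115 to 169 in APT. Hoxb13 stood at 0 to 1.14 in AKP and 17.5 to 114 in APT, Gas1 at 0 to 4.75 in AKP and 1700.3 to 6774 in APT and Ereg at 45.5 to 72.1 in AKP and 0 to 0.944 in APT, so these genes were near 0 in the same genotype in full medium and in the changed media. Fbxo32, at 698 to 3407 in AKP and 2679 to 9870.2 in APT, and Glp1r, at 0 to 175 in AKP and 3.78 to 19.4 in APT, were no longer apart.

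**Figure D5:**
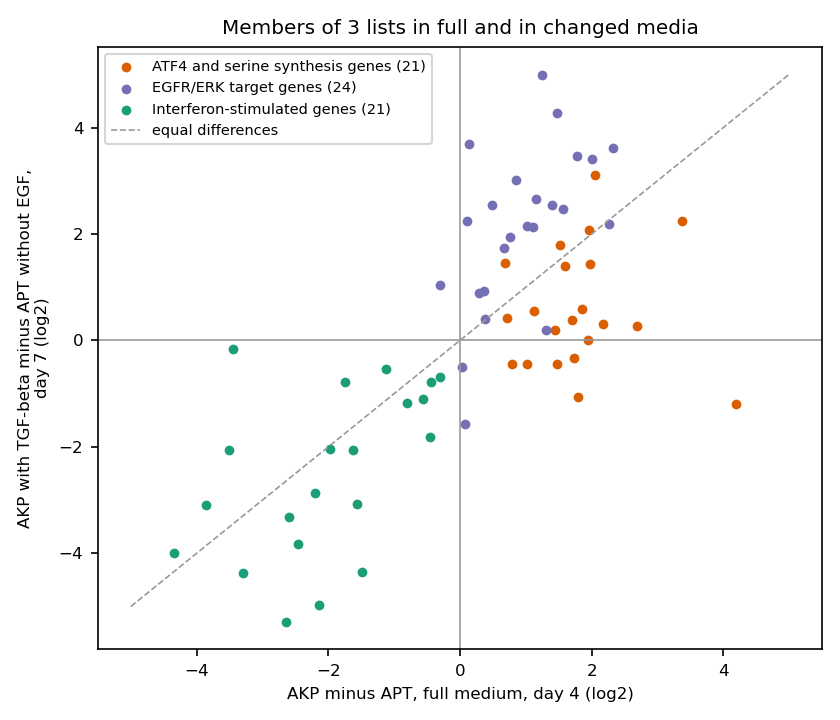
AKP minus APT difference of log2(normalised reads + 1) in full medium at day 4 (horizontal) and between AKP with TGF-beta and APT without EGF at day 7 (vertical), 1 point per tested member of 3 lists. Most ATF4-list points lie below the dashed line of equal differences, most EGFR/ERK points above it, and interferon-stimulated points at lower left on both sides of it.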

How the data were processed

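Poly(A) RNA of 8 organoid cultures was sequenced without strand information, per the labels' protocols. The authors deposited a signal value per gene and library, reads divided by a size factor. DESeq2 1.22.1, STAR 2.3.0e and the build mm10 appear, with no roles, in the submitters' processing notes. Each column was a whole multiple of 1 step within 0.001 reads for 100% of values, so reads were recovered; the unit differs from the counts planned for, and the deposited values were tested on a log scale. Of 27179 gene IDs, 25275 were named through RefSeq (GRCm38.p6). Genes with a line mean of at least 10 normalised reads in at least 2 lines were tested on log2(value + 1), averaged per line, with limma 3.58.1 in R 4.3.3 (trend, robust, Benjamini-Hochberg adjustment, 0.05). Folds on this scale understate low genes. edgeR 4.0.16 and DESeq2 1.42.0 on recovered reads, other scalings, filters and pseudocounts, and fits without a library, line or pool were alternatives.

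The pool number pairs libraries: pool 2 minus pool 1 deviations correlated at 0.203 to 0.628 in all 6 pairs of lines. The correlation was 0.592 for MTO54 with MTO100 and 0.628 for MTO220 with MTO101. In the other pairs it was 0.203 to 0.282. Pools are balanced within lines, so a shift common to all lines drops out when line means are compared. A shift that differs between lines does not drop out. Pool 2 is also the later passage of every line.

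Members and lists were chosen with earlier results of these data known. The naming rule asks for called genes and so named none; the 14 genes a side follow the same rule without the call (no overlap, mean log2 CPM of at least 3, an established symbol, ranked by line gap). That change, the near-zero genes and other members given singly were chosen after their values were seen. Consecutive passages of a line are its replicates, so p-values measure spread between lines of 2 libraries each. There were no molecular identifiers, and intervals of counting error are not given. Some members are not reported here, although counts and medians of lists include them.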

Additional observations from a re-analysis of the deposited data

Results flagged for a closer look

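In 9 of 186 groups of 4 libraries tested, 4.84%, the highest or lowest library lay farther from the rest than Dixon's 95% critical value for 4 samples allows. The rule flags about 1 in 20 by chance for 4 independent values of a normal distribution. Each group here holds 2 lines with 2 libraries each, on an unlogged scale, so that rate is no yardstick for these flags. On the APT side, Aldh1l2 stood at 188.786 normalised reads in MTO100 replicate 2, Sox18 at 80.6372 in the same library, and Phgdh and Manf at 17813 and 3235.17 in MTO101 replicate 1, each the highest of its 4. On the AKP side, Herpud1 and Cdkn1c were highest in MTO54 replicate 2, at 4089.92 and 540.89, and Tc2n was lowest there, at 511.117. Mthfd2 was lowest in MTO54 replicate 1, at 3790.68, and Isg15 highest in MTO220 replicate 1, at 18.392.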

How the results depend on the processing

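The count of called genes depended on the tool and on the unit of replication. Against 0 by limma on line means, DESeq2 on reads summed per line called 749 (392 higher in AKP, 357 in APT), limma on 8 libraries with the line as a random block 594 (252 and 342), and that fit with a replicate block for the pool 372 (157 and 215). The other alternatives called 0. Counts of genes without overlap rose where fewer libraries had to be apart. They were 5235 (2623 and 2612) in pool 1 alone, 5274 (2681 and 2593) in pool 2 alone, 4396 (2212 and 2184) without line MTO54, 4596 (2147 and 2449) without MTO220, 4182 (2266 and 1916) without MTO100 and 3733 (1948 and 1785) without MTO101. Without 1 replicate they ranged from 2588 to 2768, 1245 to 1378 higher in AKP and 1277 to 1390 higher in APT. No difference of the 81 genes followed changed direction. Many of these genes were chosen because their AKP and APT libraries did not overlap. Leaving out a library, line or pool cannot reverse such a gene, so the constant direction is no evidence of robustness. Differences that moved by over 1.5 times on leaving out a line included Ern2 (2.58 without MTO101), Btc (0.88 without MTO54) and Oas1a (-1.27 without MTO54, -6.45 without MTO220). So did Notum (-2.96 without MTO54, -0.79 without MTO220), Apcdd1 (-2.75 without MTO54, -0.88 without MTO220) and Sp5 (-2.51 without MTO100, -0.69 without MTO101). Rdh10 (-0.71 without MTO220) and Aqp5 (2.32 without MTO54, 2.305 without MTO101) moved as well. Without MTO101, so did Abcb1a (1.86), Sox2 (-2.49) and Agr2 (2.54). The cause was not tested.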
